A study of Mus musculus with 6 samples.

Results

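Ventricles of ATF6β-cn mice were set directly against ventricles of ATF6α-cn mice, which leaves aside how far either line had moved from control. The members were the 2 arrays of ATF6β-cn and the 2 arrays of ATF6α-cn, 4 of the 6 arrays in the series, and all 22206 transcript clusters (the platform's unit for a gene) that remained after 6640 control probe sets were left out. Gene symbols came from the deposited annotation column, 836 clusters carried several symbols and 3 had none.

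The study made transgenic mice in which the active N-terminal part of 1 of the 2 ATF6 proteins is produced in heart muscle cells, and measured ventricular RNA on Affymetrix Clariom S mouse arrays, 1 mouse per array. ATF6α-cn mice carried the αMHC-tTA driver with the ATF6α-cn responder, ATF6β-cn mice carried the same driver with the ATF6β-cn responder, and control mice carried αMHC-tTA alone. The driver uses the α-myosin heavy chain promoter, which is active in cardiomyocytes, and doxycycline (DOX) keeps the responder silent. All 6 mice were 8 weeks old, and the ATF6α-cn and ATF6β-cn mice had been without DOX for 4 weeks. An immunoblot legend of the study gives the same for control mice. Whether the control mice of the arrays were raised on DOX was not stated clearly. The responder transgenes were made in C57BL/6 oocytes. The study used both sexes, and how many founder lines stand behind each group was not stated. The labels call the arrays of a group biological replicates. The transgenes were not matched for level, so a difference between the proteins and a difference in transgene level or insertion cannot be told apart from these arrays. The authors held that the factors could not be compared directly for this reason. They added that equal levels would probably not allow it either, because the proteins differ in stability.

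ATF6α and ATF6β are membrane proteins of the endoplasmic reticulum (ER) that serve as sensors of the unfolded protein response. When unfolded protein builds up they move to the Golgi, where proteases free the N-terminal part, a bZIP transcription factor that enters the nucleus. There it binds ER stress response elements, together with NF-Y, upstream of genes for ER chaperones and for ER-associated degradation (ERAD), the pathway that returns misfolded proteins to the cytosol for the proteasome.

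The arrays of a group correlated at 0.99 in control and in ATF6α-cn and at 0.9913 in ATF6β-cn, and arrays of different lines correlated at 0.9862 to 0.9882. The median log2 signal ran from 5.58 to 5.64 over the 6 arrays. Negative control probe sets had medians of 5.44 to 5.48 on the transgenic arrays, against 5.02 and 5.08 in control. A log2 signal of 5.19, the 95th percentile of 1389 clusters of olfactory and vomeronasal receptor genes, was taken as the background level. It lies below the negative control medians of the transgenic arrays. Each fold given as a bound therefore holds for 5.19 alone and would be smaller at those medians. Replicate 2 of ATF6α-cn stood apart for stress genes of the heart. Nppb, which encodes brain natriuretic peptide, had a log2 signal of 14.53 on it against 11.99 on replicate 1, and Nr4a3, an immediate early nuclear receptor, had 11.23 against 6.05. All 12 cardiomyocyte markers lay above the background level in each group, and the log2 of their summed signals was 22.47 to 22.57 per array. The highest signals were 19.88 to 19.93, and markers near that ceiling, such as Myh6, could not show a rise.

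The promoters shown here were chosen for the ER stress elements they hold, in called genes and in ER chaperone genes that ATF6 is known to drive, with Slc24a5 as a called gene that lacks them. The windows of Atf6b, Pak3, Pdk3 and Pcp4 also held none of these elements and are not shown. They run from 250 bases before to 50 bases after the gene start, are written 5′ to 3′ on the strand of the gene, and come from RefSeq (GRCm38.p6). Capitals mark a match to the ER stress response element (ERSE, CCAAT and CCACG separated by 9 bases) or to the unfolded protein response element (UPRE, TGACGTGG), on either strand. A match is a stretch of letters and not a measured binding site. Derl3 (chr10:75893148-75893447, plus strand) fell furthest among ER genes in ATF6β-cn against ATF6α-cn, and its ERSE began at −156.
Derl3: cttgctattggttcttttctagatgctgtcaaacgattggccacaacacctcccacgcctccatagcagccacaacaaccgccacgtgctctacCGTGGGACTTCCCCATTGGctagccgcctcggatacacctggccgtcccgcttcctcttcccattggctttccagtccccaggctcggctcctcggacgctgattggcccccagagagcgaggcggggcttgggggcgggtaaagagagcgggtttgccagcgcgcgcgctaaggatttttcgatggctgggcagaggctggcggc
Hsp90b1 (chr10:86705395-86705694, minus strand) and Hspa5 (chr2:34771840-34772139, plus strand) encode the most abundant ER chaperones and are shown for comparison, with ERSE matches that began at −212 and −107 and at −65.
Hsp90b1: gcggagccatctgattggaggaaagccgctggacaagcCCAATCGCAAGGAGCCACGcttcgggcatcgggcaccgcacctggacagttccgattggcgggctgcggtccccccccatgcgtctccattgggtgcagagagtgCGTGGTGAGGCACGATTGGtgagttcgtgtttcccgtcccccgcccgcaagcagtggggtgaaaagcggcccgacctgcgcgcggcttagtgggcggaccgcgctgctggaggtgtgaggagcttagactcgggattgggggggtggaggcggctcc
Hspa5: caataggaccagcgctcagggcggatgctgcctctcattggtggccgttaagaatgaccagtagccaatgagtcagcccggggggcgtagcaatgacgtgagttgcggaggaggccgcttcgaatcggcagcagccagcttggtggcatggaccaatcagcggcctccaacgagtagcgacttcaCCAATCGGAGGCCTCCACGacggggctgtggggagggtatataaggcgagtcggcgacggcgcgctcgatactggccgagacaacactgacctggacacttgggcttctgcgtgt
Txndc5 (chr13:38527865-38528164, minus strand, 1 of its 3 windows) and Kcnj13 (chr1:87394680-87394979, minus strand) were higher in ATF6β-cn and held the UPRE, at −138 and −198.
Txndc5: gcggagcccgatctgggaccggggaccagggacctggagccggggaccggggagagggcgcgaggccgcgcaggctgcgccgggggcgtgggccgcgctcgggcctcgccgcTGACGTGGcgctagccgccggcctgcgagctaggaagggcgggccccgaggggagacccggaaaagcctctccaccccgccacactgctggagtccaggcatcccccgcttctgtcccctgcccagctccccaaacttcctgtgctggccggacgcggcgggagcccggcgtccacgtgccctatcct
Kcnj13: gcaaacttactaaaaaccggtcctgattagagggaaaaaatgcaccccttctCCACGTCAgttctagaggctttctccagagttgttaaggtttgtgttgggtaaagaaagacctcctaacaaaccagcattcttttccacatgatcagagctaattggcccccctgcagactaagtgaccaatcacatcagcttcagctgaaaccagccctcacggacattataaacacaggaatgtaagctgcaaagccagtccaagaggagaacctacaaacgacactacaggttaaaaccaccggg
Slc24a5 (chr2:125067877-125068176, plus strand) was, like Derl3, lower in ATF6β-cn whichever array was left out, and its window held none of the elements.
Slc24a5: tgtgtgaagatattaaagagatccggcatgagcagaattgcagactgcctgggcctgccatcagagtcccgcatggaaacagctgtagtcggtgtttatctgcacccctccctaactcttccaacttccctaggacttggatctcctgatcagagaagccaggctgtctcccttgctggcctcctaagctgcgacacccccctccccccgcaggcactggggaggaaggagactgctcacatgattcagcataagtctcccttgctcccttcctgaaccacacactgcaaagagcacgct

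At an adjusted p under 0.05 from limma, 60 of 22206 clusters (0.27%) differed between the lines. Of these, 49 were higher in ATF6β-cn (0.221%) and 11 were lower (0.0495%). The log2 differences, ATF6β-cn minus ATF6α-cn, were 1.38 to 5.89 in size among the higher clusters (median 1.99, standard error 0.20 to 0.40) and 1.53 to 6.14 among the lower ones (standard error 0.21 to 0.32). With a line at or below the background level set to its bound, the difference was at least 4-fold in 22 of the 49 and in 3 of the 11. The lines were not displaced from each other as a whole, since the median difference over all clusters was 0.00 and 50.4% of the clusters had a positive one. By fold alone 278 clusters were at least 2-fold higher and 190 at least 2-fold lower in ATF6β-cn, so that 49 and 11 of them passed the test. At an unadjusted p under 0.05 there were 2147 clusters, 1176 higher and 971 lower. An exact permutation test of 2 arrays against 2 has 0.333 as its smallest two-sided p. The calls therefore depend on limma's shared estimate of the spread, drawn from the 3 groups and from the other clusters.

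**Figure D1:**
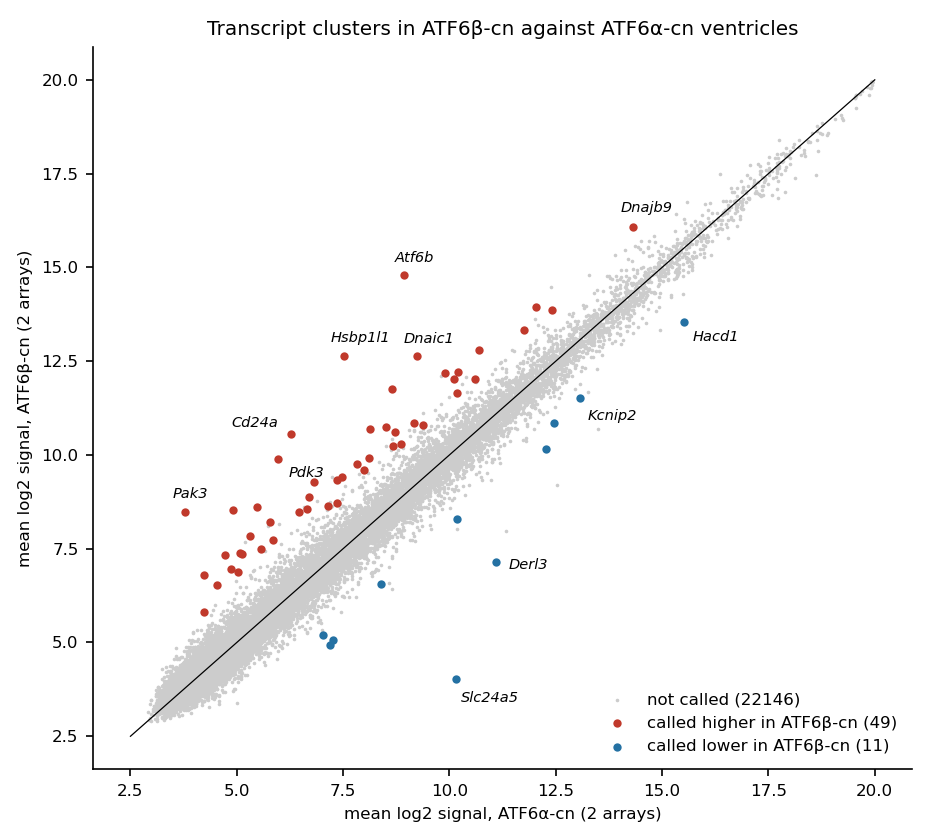
Each point is a transcript cluster, with its mean log2 signal in ATF6α-cn on the horizontal axis and in ATF6β-cn on the vertical axis (2 arrays each); the line marks equal signal. The 49 clusters called higher in ATF6β-cn are red, the 11 called lower are blue, and most points lie close to the line.

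Leaving out a single array changed the calls more than the choice of scaling did. Each omission leaves a group with 1 array. Omitting either control array gives the same fit as the 4 transgenic arrays alone, so the control omissions are 1 setting counted under 2 of the 6. Without ATF6α-cn replicate 2, ATF6β-cn replicate 1 or ATF6β-cn replicate 2 the 60 calls became 12, 17 and 9, and they became 36 when ATF6α-cn replicate 1 or any 1 control array was dropped. Of the 55 called clusters with 1 gene symbol, 8 were called whichever array was left out. These were Atf6b, Hsbp1l1, Pak3, Cd24a, Pdk3 and Pcp4, all higher in ATF6β-cn, and Slc24a5 and Derl3, both lower. Cgref1, Dnaic1 and Phgdh were called under 5 of the 6 omissions and Kcnj13 under 4. At the other end 22 of the 55 were called under none, among them Hacd1, Itga9, Kcnip2, Ndrg4, Pde1c, Samd12, Epn3 and Enpp2.

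Atf6b itself was the cluster with the largest rise. Its log2 signals were 14.80 and 14.81 on the ATF6β-cn arrays against 8.65 and 9.18 on the ATF6α-cn arrays, a 59.1-fold difference (log2 difference 5.89, 95% interval 5.33 to 6.44, adjusted p = 4.13e-05 from limma). The control arrays read 8.72 and 8.63, so ATF6α-cn stayed at the control level. On these arrays Atf6, which encodes ATF6α, was not higher than control in the line that carries its active part. It read 12.70 and 13.07 in ATF6α-cn, 12.25 and 11.94 in ATF6β-cn and 13.09 and 13.04 in control, and the difference between the lines did not pass (log2 difference −0.79, 95% interval −1.32 to −0.25, adjusted p = 0.296). Which part of the message the Atf6 probes match is unknown here, and probes outside the transgene part would read only the mouse's own gene. By qPCR against control hearts, the study reported Atf6 as raised in ATF6α-cn and lowered in ATF6β-cn. It reported Atf6b as raised in ATF6β-cn.

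Hsbp1l1, a relative of heat shock factor binding protein 1, followed Atf6b. It read 12.78 and 12.52 in ATF6β-cn and 7.86 and 7.16 in ATF6α-cn, a 35.2-fold difference (log2 difference 5.14, standard error 0.31, adjusted p = 2.72e-04). Its control arrays lay at 7.29 and 6.69, overlapping ATF6α-cn. Cd24a, a small surface glycoprotein held by a lipid anchor, read 10.37 and 10.73 in ATF6β-cn and 6.39 and 6.14 in ATF6α-cn (log2 difference 4.28, standard error 0.25, adjusted p = 2.72e-04). Its control arrays, at 5.69 and 5.33, were lower than both ATF6α-cn arrays.

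A pair of kinases on the X chromosome rose with ATF6β-cn. Pak3, a p21-activated kinase that acts downstream of Rac and Cdc42 and is best known in neurons, read 8.43 and 8.55 in ATF6β-cn but 3.72 and 3.86 in ATF6α-cn and 4.17 and 4.19 in control (log2 difference 4.70, standard error 0.21, adjusted p = 4.13e-05). Since ATF6α-cn lay below the background level, the fold is a bound, at least 9.83-fold, taken from the ATF6β-cn mean and the background level. Pdk3, a kinase that switches off the pyruvate dehydrogenase complex, read 9.72 and 10.09 in ATF6β-cn, 6.16 and 5.79 in ATF6α-cn and 4.49 and 4.66 in control (log2 difference 3.93, standard error 0.24, adjusted p = 2.91e-04). Of 14 PAK kinases and partners Pak3 was the only one called, with Arhgef7 (β-PIX, a PAK-binding exchange factor) at −0.86 and Git2 (a PAK-binding scaffold) at −0.61, neither passing. Of 33 genes of pyruvate use and glycolysis Pdk3 was the only one called. Of all 22206 clusters 0.27% were called, so a single call in lists of these sizes says little about the other members.

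Pcp4 and Dnaic1 were among the larger rises. Pcp4, a calmodulin-binding peptide found in Purkinje neurons, read 8.57 and 8.49 in ATF6β-cn and 4.96 and 4.88 in ATF6α-cn, at least 10.1-fold higher (log2 difference 3.61, adjusted p = 6.26e-04). Dnaic1, a dynein chain of motile cilia, read 13.01 and 12.25 against 9.41 and 9.05 (log2 difference 3.40, adjusted p = 0.00335). In control Dnaic1 lay at 7.19 and 6.95, so that it stood higher than control on the arrays of both lines and highest in ATF6β-cn, and the unnamed transcript B230217C12Rik had the same order, with 12.02 and 11.52 in ATF6β-cn, 9.30 and 8.0 in ATF6α-cn and 6.77 and 6.46 in control (log2 difference 3.12, adjusted p = 0.0288). Of 16 marker genes of nerve and Schwann cells none was called higher and 1, Ddc, was called lower, where 0.27% of all 22206 clusters were called. On both ATF6β-cn arrays 1 (6.25%) was higher and 6 (37.5%) were lower than on both ATF6α-cn arrays, against 20.3% and 19.4% of all clusters. At or below the background level lay 12 of the 16 in ATF6β-cn, 10 in ATF6α-cn and 11 in control, and these could show little. The part of nerve cells in the Pcp4 signal was not tested.

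Phgdh and Isyna1 encode enzymes of small-molecule synthesis. Phgdh, which starts the making of serine, read 6.77 and 6.81 in ATF6β-cn against 4.07 and 4.39 in ATF6α-cn and 4.07 and 4.37 in control, at least 3.02-fold higher (log2 difference 2.56, adjusted p = 0.00398). Isyna1, which makes inositol from glucose 6-phosphate, read 10.74 and 10.66 against 8.25 and 8.03 (log2 difference 2.56, adjusted p = 0.00681), with 7.14 and 7.67 in control. Phgdh is a target of ATF4 in the amino acid response, and it was the only called gene of 34 in the integrated stress list. The list had a median difference of 0.10, with 7 of 34 genes higher and 8 lower on both ATF6β-cn arrays than on both ATF6α-cn arrays, near the shares of all 22206 clusters (20.3% and 19.4%). Its median was 0.01 without ATF6α-cn replicate 1. Slc7a5, an amino acid transporter, was at −1.22 (adjusted p = 0.118) and Pycr1, an enzyme of proline synthesis, at 0.92 (adjusted p = 0.428).

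Kcnj13, an inwardly rectifying potassium channel, read 7.35 and 7.31 in ATF6β-cn against 4.29 and 5.18 in ATF6α-cn, at least 4.39-fold higher (log2 difference 2.60, adjusted p = 0.0168). Both control arrays, at 4.13 and 4.24, lay below the readings of each line. Both ATF6α-cn readings were below the background level, so they show no rise over control. Lipa and Naaa encode lysosomal enzymes, while the list for autophagy and lysosome, which holds neither, had no called gene among 42 and a median of 0.10. Lipa, the acid lipase that frees cholesterol and fatty acids in lysosomes, read 12.69 and 12.91 in ATF6β-cn, 11.02 and 10.38 in ATF6α-cn and 8.95 and 9.47 in control (log2 difference 2.10, adjusted p = 0.0366). Naaa, which splits N-acylethanolamines, read 10.82 and 10.67 against 8.33 and 8.69 (log2 difference 2.24, adjusted p = 0.018).

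The other higher clusters with 1 symbol that lay above the background level in ATF6α-cn and that belong to no list were Syt17 (2.54), Prkcq, the theta form of protein kinase C (2.48), Cgref1 (2.45), Ccbl2 (2.29), Gm10600 (2.20), Zdhhc2, a palmitoyltransferase (2.04), Samd12 (1.95), Epn3, an endocytic adaptor (1.94), Angpt1, the ligand of the endothelial receptor Tie2 (1.91), Fam114a1 (1.89), Igdcc4 (1.88), Gm6568 (1.88), Blvra, biliverdin reductase (1.69), Plxna1, a semaphorin receptor (1.56), Dalrd3 (1.5), Bbx (1.43) and Enpp2, autotaxin (1.38), each value a log2 difference. Where ATF6α-cn lay at or below the background level the fold was bounded at 4.28 for Fbxo16, 4.47 for Cdkl2, 3.42 for Dok5, 2.53 for Ppp1r1c, 3.22 for Gm11146 and 1.53 for Rbm46. Gm6568 is described in the deposited annotation as a pseudogene of Dnajb9, a called gene, and reads from near-identical copies cannot be told apart on probes. Higher clusters with several symbols were Gm3893; 4933409K07Rik (1.97), Gp1bb; Sept5 (1.91) and Tlcd1; Mir7653 (1.81), which cannot be assigned to 1 gene. The same holds for a block of Ccl21 chemokine copies on chromosome 4, in which the cluster of Gm1987 and Ccl21a passed (log2 difference 1.47, adjusted p = 0.0378). A further cluster, Ccl21a; Gm1987, did not (1.18, adjusted p = 0.0926).

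**Figure D2:**
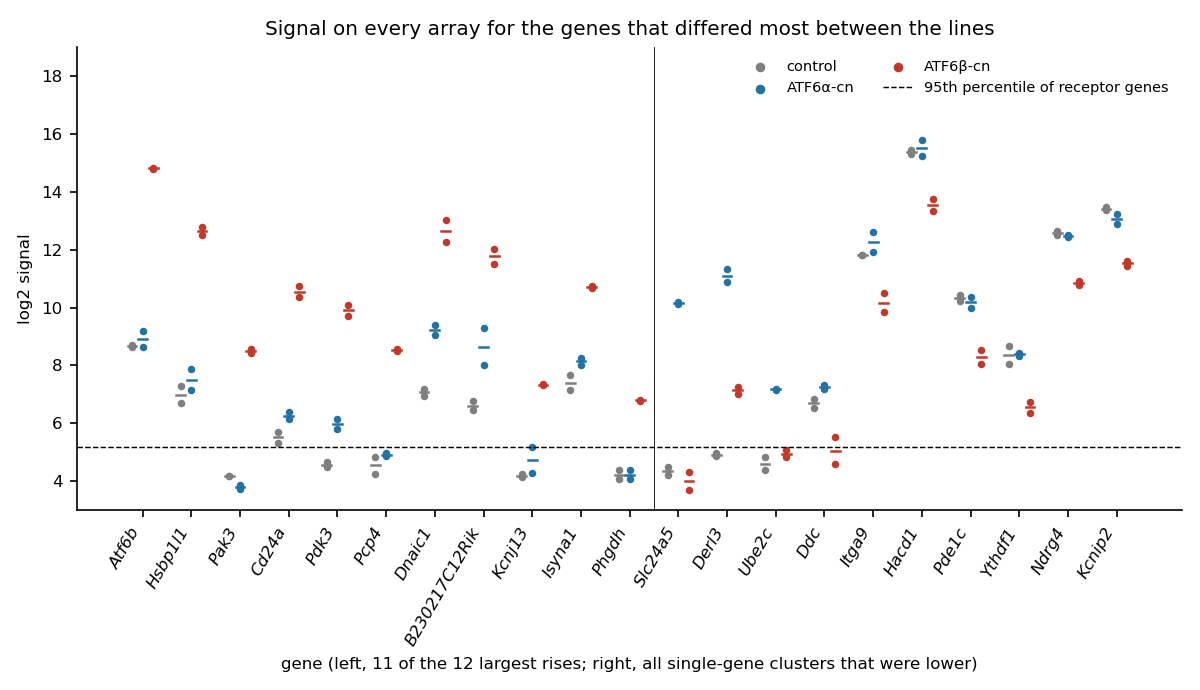
Log2 signal on each array (points, 2 per group) and the group mean (bars) for 11 of the 12 single-gene clusters with the largest rise and all 10 single-gene clusters that were lower in ATF6β-cn. The dashed line is the background level of 5.19; for every gene drawn the ATF6β-cn points lie wholly above or wholly below the ATF6α-cn points.

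Slc24a5 was high only on the ATF6α-cn arrays. It read 10.19 and 10.13 in ATF6α-cn, 3.71 and 4.32 in ATF6β-cn and 4.49 and 4.20 in control (log2 difference −6.14, 95% interval −6.74 to −5.55, adjusted p = 4.13e-05 from limma). Slc24a5 is a potassium-dependent sodium and calcium exchanger known from pigment cells, and its signal in ATF6β-cn was below the background level, so that ATF6α-cn was at least 31.3-fold higher. None of the other 5 measured members of its list was called, and Slc24a4, which also lay below the background level, had a difference of −0.44. The 10 measured genes nearest to it on chromosome 2, 5 on each side in RefSeq order, had differences between −0.68 and 0.25, none of them called.

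Derl3 was the second largest fall and the only one in an ER list. Derl3 is a derlin, a membrane protein of the channel through which ERAD substrates leave the ER. It read 11.32 and 10.89 in ATF6α-cn, 7.02 and 7.27 in ATF6β-cn and 4.96 and 4.86 in control, a 15.5-fold difference between the lines (log2 difference −3.95, 95% interval −4.49 to −3.41, adjusted p = 2.72e-04). It was the 1 cluster of the 11 lower ones in which both arrays of both lines lay above both control arrays. The related derlins went the other way without passing, Derl1 at 0.78 (adjusted p = 0.264) and Derl2 at 0.46 (adjusted p = 0.567).

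Ube2c, Ddc and Itga9 stood above both control arrays in ATF6α-cn, and in ATF6β-cn they lay at control or below it. Ube2c, the ubiquitin-conjugating enzyme of the anaphase-promoting complex, read 7.20 and 7.15 in ATF6α-cn but 4.82 and 5.07 in ATF6β-cn and 4.37 and 4.85 in control, at least 3.95-fold higher in ATF6α-cn (log2 difference −2.23, adjusted p = 0.0138). Ddc, which makes dopamine and serotonin from their precursors, read 7.33 and 7.19 in ATF6α-cn, 5.53 and 4.59 in ATF6β-cn and 6.84 and 6.54 in control, at least 3.72-fold higher in ATF6α-cn (log2 difference −2.20, adjusted p = 0.041). Itga9, an integrin subunit, read 11.93 and 12.62 in ATF6α-cn against 10.49 and 9.85 in ATF6β-cn (log2 difference −2.10, adjusted p = 0.0437), with control at 11.82 and 11.80.

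Most of the remaining lower genes were close to control in ATF6α-cn and below it in ATF6β-cn. Hacd1, a dehydratase of very-long-chain fatty acid synthesis found in striated muscle, read 15.25 and 15.79 in ATF6α-cn, 13.33 and 13.76 in ATF6β-cn and 15.44 and 15.29 in control (log2 difference −1.98, adjusted p = 0.0327). Pde1c, a calcium- and calmodulin-dependent phosphodiesterase, read 9.98 and 10.37 against 8.53 and 8.04 (log2 difference −1.89, adjusted p = 0.0348). Kcnip2 (KChIP2), the accessory subunit of the channels that carry the transient outward current, read 13.23 and 12.89 against 11.45 and 11.60 (log2 difference −1.53, adjusted p = 0.0438). Control stood at 10.23 and 10.44 for Pde1c and at 13.36 and 13.48 for Kcnip2, the latter above both lines.

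Ndrg4, a cytoplasmic protein expressed in heart and brain, read 12.44 and 12.49 in ATF6α-cn and 10.77 and 10.93 in ATF6β-cn (log2 difference −1.61, adjusted p = 0.0301). Ythdf1, a reader of methylated adenosine in messenger RNA, read 8.43 and 8.34 against 6.36 and 6.75 (log2 difference −1.83, adjusted p = 0.0459). A cluster shared by the prion gene Prnp with Prnd and Prn was also lower (−1.83, adjusted p = 0.0437). Apart from Slc24a5 and Derl3, no lower gene with 1 symbol was called under more than 2 of the 6 omissions of an array.

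For each called cluster the arrays of both lines were set beside the control arrays. All 49 clusters higher in ATF6β-cn had both ATF6β-cn arrays above both control arrays. In 23 of them both ATF6α-cn arrays were above control as well, in 20 they overlapped control and in 6 they were below it. The control mean was nearer to ATF6α-cn than to ATF6β-cn in all 49. Fkbp7 is an example with both lines above control, at 13.86 and 13.87 in ATF6β-cn, 12.46 and 12.35 in ATF6α-cn and 10.43 and 10.74 in control, and Txndc5 one with ATF6α-cn at the control level, at 10.90 and 10.69, 9.47 and 9.26, and 9.35 and 9.40. Of the 11 lower clusters the control mean was nearer to ATF6α-cn in 8 and nearer to ATF6β-cn in 3, which were Slc24a5, Derl3 and Ube2c. Among the 23, Pcp4, Kcnj13, Cdkl2 and Gm11146 had an ATF6α-cn mean below the background level. Negative control probe sets also had higher medians on the ATF6α-cn arrays (5.46 and 5.48) than in control (5.08 and 5.02). The part of this offset in dim signals that lay above control was not tested. These counts describe the called clusters and carry no test against control. How often all clusters take such positions against control was not counted. Between the lines, 20.3% of all 22206 clusters were higher and 19.4% lower on both arrays.

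**Figure D3:**
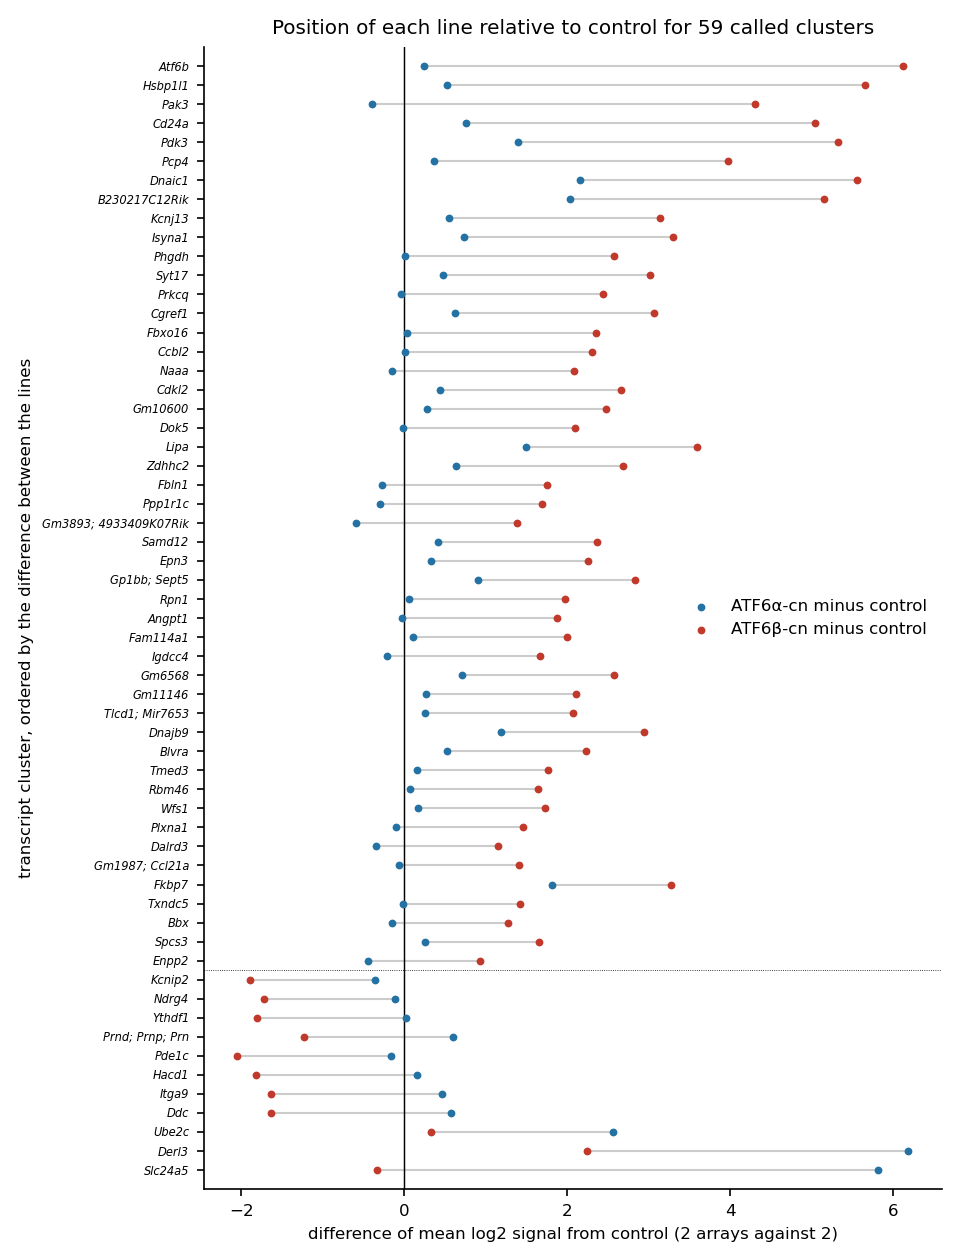
For 59 of the 60 called clusters the difference of the mean log2 signal from control (2 arrays against 2) is shown for ATF6α-cn (blue) and ATF6β-cn (red), ordered by the difference between the lines. In all 48 clusters drawn above the dotted line the ATF6α-cn point is nearer to control, and among the 11 below it Ube2c, Derl3 and Slc24a5 have the ATF6β-cn point nearer.

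Genes of the ER and of the early secretory pathway lay higher in ATF6β-cn more often than lower. Over 7 lists together (chaperones, ERAD, disulfide isomerases, N-glycosylation, translocation, COPII, and COPI with p24), which hold 235 genes, the median log2 difference was 0.20 and 176 differences were positive. Of these genes 6 were called higher (2.55%) and 1 was called lower, where 0.221% and 0.0495% of all 22206 clusters were. On the arrays, 109 of the 235 (46.4%) were higher on both ATF6β-cn arrays than on both ATF6α-cn arrays and 23 (9.79%) were lower, against 20.3% and 19.4% of all 22206 clusters. Of the 6 called higher, Rpn1 was called under 3 of the 6 omissions of an array, and Dnajb9, Fkbp7, Txndc5, Spcs3 and Tmed3 under 0, as was Wfs1 in a further list. No test of the lists as sets was made, and genes that share regulation are not independent. Shares among clusters as bright as these genes were not counted.

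Among 31 ER chaperones and folding factors 2 were called higher. Dnajb9 (ERdj4), a cochaperone of BiP, read 16.20 and 15.95 in ATF6β-cn, 14.54 and 14.10 in ATF6α-cn and 13.10 and 13.17 in control (log2 difference 1.75, adjusted p = 0.0348). Fkbp7, a prolyl isomerase of the ER, was at 1.46 (adjusted p = 0.0459). Sdf2l1, a partner of ER chaperones, read 14.66 and 14.27 against 12.88 and 11.89 and missed the threshold (log2 difference 2.08, adjusted p = 0.0584), as did Fkbp11, a further prolyl isomerase (2.36, adjusted p = 0.0703). Other chaperones did not pass. Hsp90b1, which encodes GRP94, read 18.77 and 18.44 in ATF6α-cn and 17.37 and 17.55 in ATF6β-cn (log2 difference −1.15, 95% interval −1.66 to −0.64, adjusted p = 0.1). Hspa5, which encodes BiP, read 19.03 and 18.73 against 18.54 on both ATF6β-cn arrays (−0.34, 95% interval −0.84 to 0.16, adjusted p = 0.682), close to the upper end of the scale. Calr, calreticulin (0.08, 95% interval −0.44 to 0.60), and Hyou1, the large ER chaperone GRP170 (−0.30, 95% interval −0.91 to 0.31), had overlapping arrays, as did a cluster shared by Manf and Rbm15b (−0.03).

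Of 24 disulfide isomerases, enzymes that make and rearrange disulfide bonds, Txndc5 was called higher (log2 difference 1.43, adjusted p = 0.0469). Erp29, an ER protein of the same fold, read 8.02 and 7.67 against 6.45 and 6.80 (1.23, adjusted p = 0.114), and P4hb, protein disulfide isomerase itself, was at 0.68 (adjusted p = 0.394). A cluster shared by Pdia4 and Mir704, which belongs to 2 genes and was therefore kept out of the list, read 15.25 and 14.65 in ATF6α-cn against 13.27 and 13.38 in ATF6β-cn and 9.69 and 9.67 in control (−1.63, adjusted p = 0.0514). Both lines lay above control in this cluster, with ATF6α-cn the higher on both arrays, and its signal cannot be assigned to 1 gene.

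ERAD genes were not uniform. Of 35 measured, Derl3 was the only one called, 13 were higher and 6 lower on both ATF6β-cn arrays, and the median was 0.18 (0.08 without ATF6β-cn replicate 1). Os9, a lectin that selects misfolded glycoproteins, was at 0.89 (adjusted p = 0.33) and Herpud1, an ER membrane ubiquitin-like protein, at 0.47 (adjusted p = 0.626). Sel1l, the partner of the ligase HRD1, read 12.75 and 12.66 in ATF6α-cn and averaged 12.01 in ATF6β-cn (−0.69, adjusted p = 0.432), while Syvn1, which encodes HRD1, was at 0.26 with overlapping arrays.

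Enzymes and carriers further along the pathway supplied 3 more higher genes. Rpn1, ribophorin I of the oligosaccharyltransferase, read 12.08 and 11.96 in ATF6β-cn, 10.30 and 9.91 in ATF6α-cn and 10.00 and 10.09 in control (log2 difference 1.91, adjusted p = 0.0205) and was the 1 called gene of 36 in N-glycosylation. Spcs3, a subunit of signal peptidase, averaged 12.02 in ATF6β-cn against 10.73 and 10.50 in ATF6α-cn (1.41, adjusted p = 0.0459) and was the 1 called gene of 40 in translocation into the ER. Tmed3, a p24 cargo receptor, read 9.47 and 9.73 against 8.11 and 7.86 (1.61, adjusted p = 0.0459) and was the 1 called gene of 36 in the COPI and p24 list. Among members that did not pass were Prkcsh, the glucosidase II subunit (1.22, adjusted p = 0.0811), Uggt1, the glycoprotein folding sensor (1.04, adjusted p = 0.182), Tmed9 (1.32, adjusted p = 0.0584) and Srp54a and Srp54b, near-identical copies of a signal recognition particle subunit (1.22 and 1.17).

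The COPII list, for coat proteins of ER exit, held no called gene among 34, yet its median of 0.33 was the highest of the 7. Of its genes 17 (50%) were higher and 1 (2.94%) lower on both ATF6β-cn arrays than on both ATF6α-cn arrays, and the COPI and p24 list had 20 (55.6%) and 1 (2.78%), with a median of 0.21. Lman1 (ERGIC-53), a cargo receptor, read 13.36 on both ATF6β-cn arrays and 12.26 and 12.32 in ATF6α-cn (1.07, adjusted p = 0.0982), and Sec24d, a cargo-binding coat subunit, was at 1.01 (adjusted p = 0.188). With 1 array left out the COPII median ran from 0.26 to 0.41 and the COPI median from 0.18 to 0.29. Without ATF6β-cn replicate 1 the chaperone median, at 0.30, was above the COPII median of 0.26.

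In the list of 21 stress sensors and the factors that act with them, the called genes were Atf6b, which the transgene carries, and Wfs1, wolframin of the ER membrane, at 13.33 and 13.31 in ATF6β-cn, 11.78 and 11.73 in ATF6α-cn and 11.60 and 11.58 in control (log2 difference 1.57, adjusted p = 0.0301). Xbp1, the factor spliced by IRE1, read 13.23 and 13.34 against 13.26 and 13.15 (0.08, 95% interval −0.41 to 0.57), with control at 12.16 and 11.90. The messages of the other stress sensors, Ern1 (IRE1, −0.36) and Eif2ak3 (PERK, 0.32), did not pass, and Eif2s1, the subunit that PERK phosphorylates, was at −0.29.

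**Figure D4:**
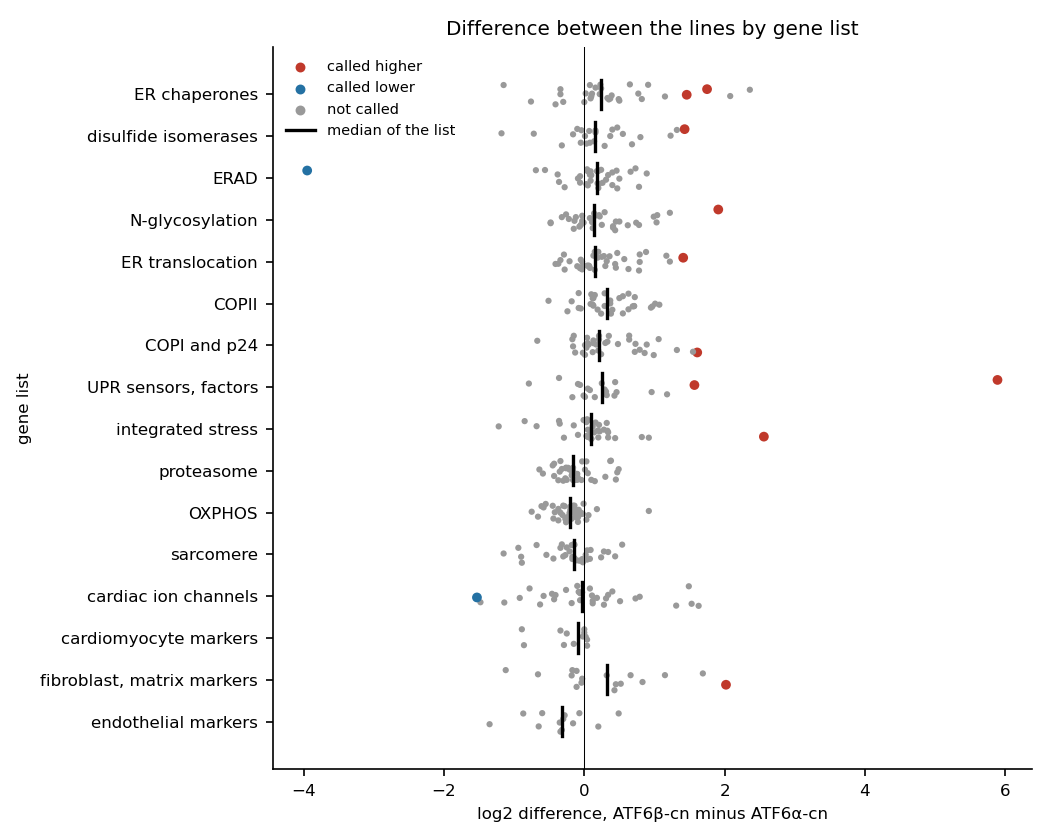
Each point is a gene at its log2 difference, ATF6β-cn minus ATF6α-cn (horizontal axis), in 1 of 16 gene lists (vertical axis); bars are list medians, red and blue points are called genes. COPII and COPI points lie mostly to the right of 0 and OXPHOS points mostly to the left, with medians of 0.33, 0.21 and −0.20.

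The lists for oxidative phosphorylation, the sarcomere and the proteasome had negative medians and no called gene. Over all 22206 clusters 20.3% were higher and 19.4% lower on both ATF6β-cn arrays. Of 46 subunits of oxidative phosphorylation 42 had a negative difference, 27 (58.7%) were lower and 2 (4.35%) higher on both ATF6β-cn arrays, and the median was −0.20. Ndufv2, a subunit of complex I, read 16.06 and 15.53 in ATF6β-cn and 16.50 and 16.58 in ATF6α-cn (−0.75, adjusted p = 0.342), and Ndufa2, of the same complex, was the exception at 0.92 (adjusted p = 0.186). Of 33 sarcomere genes 14 (42.4%) were lower and 1 (3.03%) higher on both arrays, and the median was −0.15. It ran from −0.27 without ATF6α-cn replicate 1 to −0.02 without ATF6α-cn replicate 2. Xirp2, of the intercalated disc, was at −1.15 (adjusted p = 0.153) and Myom2, of the M-band, at −0.94 (adjusted p = 0.175). Of 39 proteasome genes 19 (48.7%) were lower and 4 (10.3%) higher, with a median of −0.16. Of the 12 cardiomyocyte markers 6 were lower and none higher on both arrays, and the part of this in the sarcomere and oxidative phosphorylation values was not tested. Of 36 genes of fatty acid oxidation 11 (30.6%) were higher and 6 (16.7%) lower, with a median of −0.02 and no call, and of the 33 genes of pyruvate use and glycolysis 5 (15.2%) were higher and 12 (36.4%) lower, with a median of −0.10.

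Ion channel genes were spread in both directions. Of 33, Kcnip2 was called lower and none higher, and the median was −0.03. Scn4b, an accessory subunit of the sodium channel, read 9.81 and 9.18 in ATF6β-cn and 8.09 and 7.65 in ATF6α-cn (1.63, adjusted p = 0.0796), and Gja5, which encodes connexin 40, read 6.51 and 7.37 against 5.46 and 5.35 (1.53, adjusted p = 0.108). Natriuretic peptide genes did not pass. Nppa read 16.91 and 17.25 in ATF6β-cn, 16.89 and 18.49 in ATF6α-cn and 15.52 and 15.51 in control (−0.60, adjusted p = 0.737), and the replicate of ATF6α-cn that stood apart set the size of both Nppa and Nppb (−1.57, standard error 0.66, adjusted p = 0.489). Myh6 (−0.02) lay at the ceiling, and Myh7, the fetal myosin, was at 0.54 (adjusted p = 0.593). The median of the 25 genes of the hypertrophy list was −0.28 and changed sign, to 0.20, without ATF6α-cn replicate 2.

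No gene was called in the lists for lipid synthesis (31 genes, median −0.09), sterol and fatty acid synthesis (30, −0.01), sarcoplasmic reticulum calcium handling (30, 0.00), antioxidant defence (29, 0.06), immediate early genes (27, −0.24) or the clock (21, 0.26). The medians of the last pair changed sign without ATF6α-cn replicate 2, to 0.17 and −0.08, and that of the immediate early genes was 0.06 without ATF6β-cn replicate 1. Of 31 cytosolic chaperone genes Hsbp1l1 alone was called, and the median was −0.04. Hsd17b7, of cholesterol synthesis, was at −1.33 (adjusted p = 0.0919) and Nsdhl, of the same route, at 1.31 (adjusted p = 0.209).

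Markers of other cell types moved between the lines in part. In ventricular RNA fewer cells of a type and less RNA per cell cannot be told apart. Of 17 fibroblast and matrix markers Fbln1, fibulin-1 of the matrix, was called higher, at 12.14 and 12.30 in ATF6β-cn and 10.64 and 9.75 in ATF6α-cn (log2 difference 2.02, adjusted p = 0.0472), 6 (35.3%) were higher and none lower on both arrays, against 20.3% and 19.4% of all clusters, and Dpep1 was at 1.69 (adjusted p = 0.0982). Of the 17 differences 9 were positive and 8 negative, down to −1.12 in Postn, a matrix protein of activated fibroblasts (adjusted p = 0.501). The log2 of the summed signals of the 17 was 18.77 and 19.04 in ATF6β-cn, 18.26 and 18.04 in ATF6α-cn and 18.20 and 18.18 in control. The list median of 0.32 became −0.03 without ATF6β-cn replicate 2. Of 13 endothelial markers none was called, 6 (46.2%) were lower and none higher on both arrays, and the median was −0.32 (from −0.56 to −0.08 as replicate 1 or replicate 2 of ATF6α-cn was left out). The log2 of their summed signals was 18.10 and 18.00 in ATF6β-cn and 18.21 and 18.58 in ATF6α-cn. Cldn5, of endothelial junctions, was at −1.35 (adjusted p = 0.465), a difference carried by ATF6α-cn replicate 2 at 9.42 against 7.39 on replicate 1.

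Smooth muscle and pericyte markers (12 genes, median −0.13, 6 lower and none higher on both ATF6β-cn arrays, log2 of summed signals 16.19 to 16.82 in the transgenic arrays), immune markers (18, −0.01, 13.67 to 14.47), atrial markers (8, −0.01), blood cell and platelet markers (6, −0.30) and epicardial and fat cell markers (13, −0.02) held no called gene. Of the last 13, 11 lay at or below the background level in ATF6β-cn and 12 in ATF6α-cn. The secretory pathway genes are also abundant in matrix-producing cells, and the part of the fibroblast and matrix markers in those differences was not tested.

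Promoter windows were found for 16216 of 21154 measured genes, for all 10 lower genes with 1 symbol and for 27 of the 45 higher ones. With under 80% of the higher genes covered, a comparison of motif shares for them is void, and only the matches are given. The ERSE occurred in 28 of 16216 genes (0.173%), with 14 positive differences and a median of 0.01. On both ATF6β-cn arrays 6 were higher and 10 lower, where 3299 and 3189 of all 16216 genes with a window were higher and lower. Several of the 28, such as Tdrd9, Calr4 and Zfp57, had means below the background level in every group. Derl3 was the only called one of the 28. Of the others, Hsp90b1, Creld2 (an ER cochaperone, −0.41) and Hspa5 were lower on both ATF6β-cn arrays, Calr overlapped, and Dnajc3 (an ER cochaperone of BiP), Syvn1, Pdia6 (a disulfide isomerase) and Alg12 (a mannosyltransferase of N-glycan assembly) had differences of 0.24, 0.26, 0.47 and 1.03.

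A second element of this family, ERSE-II (ATTGG and CCACG separated by 1 base), occurred in 9 genes (0.0555%), 8 of them with a positive difference, a median of 0.22 and no call, Herpud1 (0.47) among them. The UPRE occurred in 139 genes (0.857%), with a median of 0.06 and 40 higher and 19 lower on both ATF6β-cn arrays (3299 and 3189 of all 16216 genes with a window), and Txndc5 and Kcnj13 were its called genes. The cyclic AMP response element TGACGTCA occurred in 424 genes (2.61%), none of them called. The core CCACG, part of the longer elements, occurred in 6758 genes (41.7%) and in 6 of the 10 lower genes.

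The called genes did not lie in long stretches. Of the 590 measured neighbours within 5 steps of 59 placed called clusters, 6 were called themselves. That is a larger share than the 0.27% called among all 22206 clusters. The 6 formed 3 pairs. Cdkl2 and Naaa lie 5 steps apart on chromosome 5, with Uso1, a tether of ER-to-Golgi vesicles, between them at 1.06 (adjusted p = 0.188). Samd12 and Enpp2 lie 5 steps apart on chromosome 15, and Gm10600 and a cluster of Gm3893 and 4933409K07Rik lie in the Ccl21 block of chromosome 4, where copies cannot be told apart. Of the 584 neighbours not called, 20.7% were higher and 21.4% lower on both ATF6β-cn arrays, near the 20.3% and 19.4% of all clusters.

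**Figure D5:**
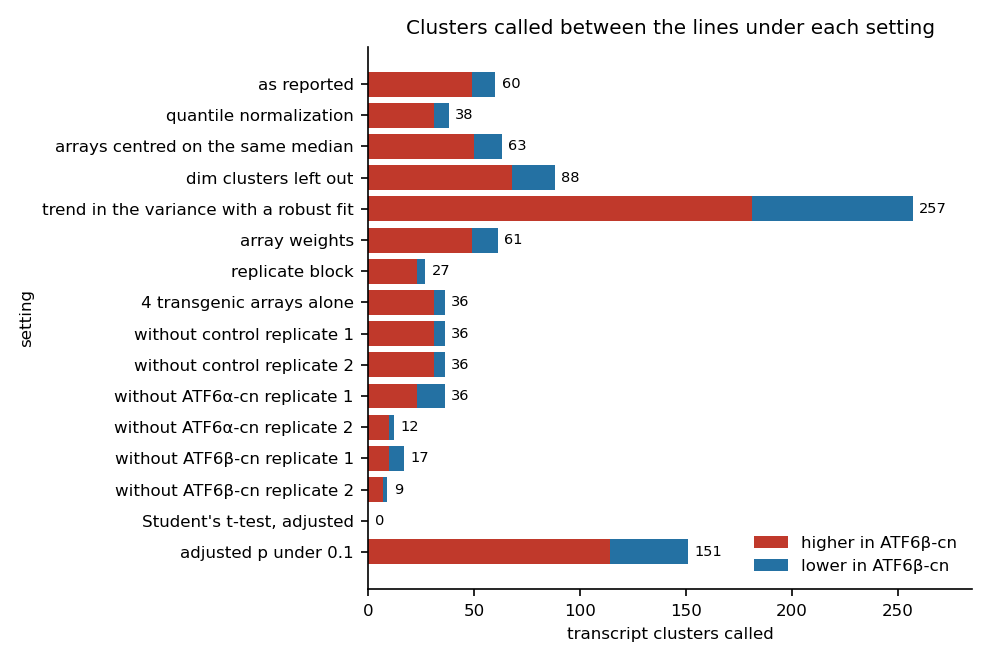
Number of clusters called between the lines (horizontal axis, split into higher and lower in ATF6β-cn) under each way of processing (vertical axis). The count of 60 as reported ranged from 9 without ATF6β-cn replicate 2 to 257 when the robust fit with a variance trend was used, and was 0 with Student's t-test after adjustment.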

How the data were processed

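Ventricular RNA of 6 mice was measured on Clariom S arrays, 2 per group, labelled with a 3′ in vitro transcription kit. The authors deposited log2 signals normalized between arrays, 1 column per array. The submitters' notes name Affymetrix Expression Console without a version, and how background was corrected and probes summarised is not stated. Transcriptome Analysis Console is named in the study's methods. A second deposited table supplied the symbols; it also holds the authors' fold changes and p-values against control, which were not used. No column of another series was present (0 unused).

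Groups came from the labels. The log2 signals of all 6 arrays were fitted in R 4.3.3 with limma 3.58.1, with a mean for each group and variances moderated across clusters (3 residual plus 5.63 prior degrees of freedom), and p for ATF6β-cn minus ATF6α-cn was adjusted by Benjamini-Hochberg over 22206 clusters, with no filter on signal. Intervals are 95% from the same fit. The calculation was tested on simulated data. Where the mean of a line lay at or below 5.19, the fold is given as at least the mean of the other line over the mean of, per array, the higher of 5.19 and its own signal.

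Genes named are Atf6 and Atf6b, called clusters with 1 symbol, up to 4 called and 2 uncalled members of each of 35 lists by size of difference, and genes the paper names for these arrays; neighbours, shared clusters, Ccl21 copies, Derl1 and Derl2 and genes holding a motif were picked after their values were seen. One called gene is not reported here. The members and lists were chosen with earlier results of these data known. The lists cover 884 measured genes, 8 through a synonym, and leave out clusters shared by several genes; 132 genes had several clusters, of which 1 was used.

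Precision is limited by the number of arrays, which carry no read depth. The labels do not say that replicate numbers pair the mice, and same-numbered deviations correlated at −0.024 between the lines. Alternatives were quantile normalization, median centring, leaving out dim clusters, array weights, a robust fit with a variance trend, a block for the replicate number, fits without 1 array or without both controls, other thresholds and Student's t-test.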

Additional observations from a re-analysis of the deposited data

How the results depend on the processing

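Quantile normalization gave 38 calls between the lines (31 higher and 7 lower in ATF6β-cn), centring on the same median 63 (50 and 13), leaving out dim clusters 88 (68 and 20), the robust fit with a variance trend 257 (181 and 76) and array weights 61 (49 and 12). The 4 transgenic arrays alone gave 36 (31 and 5), an adjusted p under 0.1 gave 151 (114 and 37), and a log2 difference of at least 1 left all 60. With 1 array left out the counts ran from 9 to 36 in all, from 7 to 31 higher and from 2 to 13 lower. Student's t-test on 4 arrays called 0 after adjustment in either direction (0 higher and 0 lower) and 1633 at an unadjusted p (916 and 717). With the replicate number as a block the calls were 27 (23 and 4). Same-numbered deviations correlated at −0.024 between the lines, and why the block lowered the count was not tested. Of the 55 called genes, 33 kept their call after quantile normalization, 31 with the 4 arrays alone, 26 with the block and all 55 with centring, dim clusters left out, the variance trend and array weights. No called gene changed direction. Among uncalled genes Myh6 was at 0.07 after quantile normalization, and with 1 array left out the sign turned at 1 end of the range for Alas2 (−1.21 to 0.17), Calr (−0.10 to 0.26), Hyou1 (−0.63 to 0.04), Myh6 (−0.04 to 0.00), Nppa (−1.4 to 0.20), Nr4a3 (−3.99 to 1.19), Stard10 (−0.77 to 0.06) and Syvn1 (−0.12 to 0.64). The cause of the differences between settings was not tested, beyond the fewer arrays in some. Signals at or below 5.19 or near 19.93 limit what could be seen, and missing the threshold does not show equal levels.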

Other observations

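Of the 11 lower clusters 5 were placed on chromosome 2, spread along it, and 5 of the higher ones as well. Of the 1766 measured clusters there 0.566% were called, against 0.27% of all 22206 clusters. Pak3, Pdk3 and Gm6568 were the 3 called clusters of 898 on the X chromosome (0.334%). The clock gene Arntl, a core activator of the circadian feedback loop, read 6.46 and 7.48 in ATF6α-cn, 5.30 and 5.73 in ATF6β-cn and 5.15 and 5.74 in control (log2 difference −1.45, adjusted p = 0.206), and the time of day of sampling was not stated. Far1, a reductase of ether lipid synthesis singled out after its values were seen, lay far above control in both lines and differed little between them, at 13.38 and 13.50 in ATF6β-cn, 13.17 and 13.19 in ATF6α-cn and 9.27 and 8.84 in control (log2 difference 0.26, 95% interval −0.26 to 0.79).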
